A study of Mus musculus with 2 samples.

Results

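The levels of 34 genes of glucose uptake, glycolysis and the response to hypoxia were examined in the cells of injured mouse skeletal muscle. The genes were taken as listed members, by gene symbol, from the 32285 features of the count tables, and all 34 were found. Of these, 20 act in glucose uptake, glycolysis and lactate export, and 14 act in oxygen sensing or are known targets of the hypoxia response. The 2 libraries came from the right quadriceps of wild-type C57BL/6J male mice, 14 weeks old, in which 100 µL of 1.2% BaCl2 had been injected to injure the muscle. One library was made from muscle taken on day 1 after the injection and the other from day 3, and each pooled cells of 5 mice. Both groups were injured, and no uninjured muscle was analysed here. The muscle was digested with collagenase and dispase, the cells were sorted by scatter and cryopreserved, and mature myofibers were not among the cells analysed.

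Glycolysis splits glucose into pyruvate and yields ATP without oxygen, and lactate dehydrogenase and a lactate transporter then remove the product. When oxygen is low, the prolyl hydroxylases (PHD enzymes) no longer mark HIF-1α for destruction, and the protein accumulates and binds short DNA motifs near most of the glycolytic genes and near genes such as Bnip3, Ankrd37 and Pdk1. In myeloid cells, inflammatory stimuli are also known to raise HIF-1α and glycolysis while oxygen is present. The protein level of HIF-1α is set mainly after transcription, and these data measure mRNA only.

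After removal of barcodes with few UMIs or more than 7.5% mitochondrial UMIs, 6735 cells remained on day 1 (71141227 UMIs, median 9389 UMIs per cell) and 4627 on day 3 (84177707 UMIs, median 14548). No cell barcode was shared between the libraries. The mitochondrial limit removed 3.76% of the barcodes considered on day 1 and 27.2% of those on day 3, and the median mitochondrial share of the cells kept was 2.12% and 4.04%. The list of possible barcodes in the day 1 table was 737280 long and that of day 3 was 6794880 long, although the labels give the same reagent kit version for both libraries, while the methods name chips of more than 1 version. Any difference in chemistry, the library and the day cannot be told apart. With 1 library per day there was no replicate and no test. Levels are UMIs of a gene per 1000000 UMIs of the group of cells (CPM), with the 95% exact Poisson interval in brackets, and intervals cover counting error only. A ratio was computed for genes with at least 100 UMIs in the 2 groups compared, and a gene at or past 2-fold, a log2 ratio of 1 or more in size, is called higher or lower. Each transcript is counted once at its 3′ end, so levels of different genes were not divided by transcript length.

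Cells were clustered without the 34 genes and named from marker genes. Monocyte/macrophage-like cells numbered 3456 on day 1 and 2809 on day 3 and carried C1qb, a complement gene of macrophages, at 847 and 2448 CPM. The 2081 and 244 neutrophil-like cells carried the neutrophil list at 89860 and 44799 CPM in sum. The fibroblast/FAP-like cells (FAP, fibro/adipogenic progenitor) numbered 635 and 809, the dendritic cell-like cells 458 and 450, and the satellite cell/myoblast-like cells 5 and 200. The dendritic cell-like cells held the class II genes H2-Aa and Cd74 among their leading genes, but the macrophage list summed to 4016 CPM in them on day 1 against 538 CPM for the dendritic cell list, so they are not free of macrophage transcripts. A cluster of 100 and 115 cells scored for endothelial, T cell and other marker lists at once and stayed unnamed. Neutrophil-like cells were shallow, with medians of 2155 UMIs on day 1 and 1596 on day 3 against 11174.5 and 13846 in monocyte/macrophage-like cells.

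The question of the first comparison was how expression in the macrophage compartment differed between the inflammatory stage on day 1 and day 3. In monocyte/macrophage-like cells, the 20 glycolysis genes together took 1.07% of all UMIs on day 1 and 0.668% on day 3, and the 14 oxygen sensing and hypoxia genes took 0.128% and 0.0622%. Of the 33 members with enough UMIs, 9 were at least 2-fold lower on day 3 (Slc2a1, Slc16a3, Pfkl, Eno1, Hif1a, Egln3, Ankrd37, Ddit4 and Mxi1) and 1, P4ha2, was at least 2-fold higher. Over all 10707 genes tested, 4.97% were at least 2-fold lower and 26.8% at least 2-fold higher. The intervals of 24 members lay below 0, those of 6 lay above 0, and those of 3 held 0, while of all genes 2250 lay below 0 and 7032 above 0. The median log2 ratio was -0.67 for the members and 0.44 for all genes. Taken relative to that median of all genes, 17 members were at least 2-fold lower and 1 was higher, beside 9.40% and 16.2% of all genes. The day 1 and day 3 cells of this class fell mostly in different clusters, which are described further on. Levels of other cells' markers in these cells also differed between the days, the neutrophil list at 2132 and 557 CPM in sum the fibroblast list at 33.7 and 113 CPM and the myofiber list at 9.06 and 6.93 CPM, and their part in the result was not tested.

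**Figure D1:**
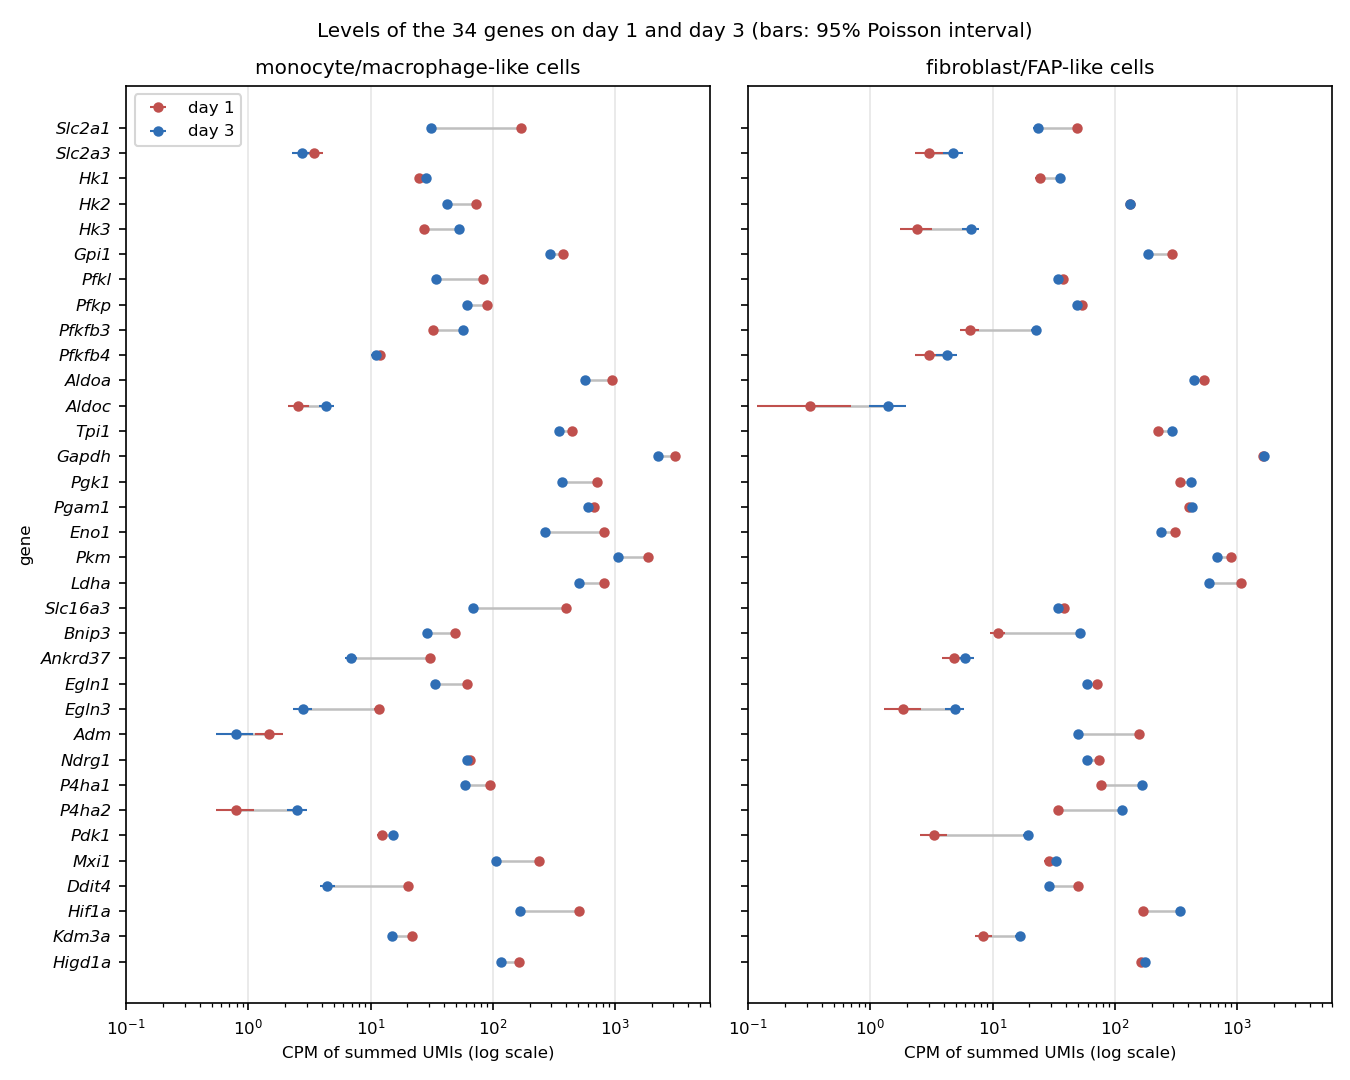
Level of each of the 34 genes (rows) in CPM on a log axis, in monocyte/macrophage-like cells (left) and fibroblast/FAP-like cells (right), on day 1 (red) and day 3 (blue), with bars for the 95% Poisson interval and 1 library per day. Slc2a1, Slc16a3, Eno1, Hif1a, Ankrd37, Egln3 and Ddit4 lie far to the left on day 3 in the left panel, while Bnip3, Pdk1, P4ha1, P4ha2 and Hif1a lie to the right on day 3 in the right panel.

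Both ends of the pathway, glucose entry and lactate exit, showed the widest gaps. Slc2a1, which encodes the glucose transporter GLUT1, was at 170.2 CPM [166 to 174] on day 1 and 31.3 CPM [29.7 to 33.0] on day 3, a log2 ratio of -2.44 (5.44-fold lower). Slc16a3, which encodes the lactate exporter MCT4, was at 401 CPM [395 to 408] and 68.4 CPM [66.0 to 70.9], a log2 ratio of -2.55 (5.87-fold lower). The intervals of the 2 days lay far apart for both genes, and the 2 ratios were the lowest among the members in this class. Slc2a3, the high-affinity transporter GLUT3, was scarce in these cells at 3.46 and 2.76 CPM, and the interval of its log2 ratio, -0.69 to 0.03, held 0. Ldha, which makes lactate from pyruvate, was abundant on both days, at 811 CPM [802 to 819] on day 1 and 511 CPM [504.2 to 517] on day 3, and its log2 ratio of -0.67 stayed within 2-fold.

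The hexokinases, which trap glucose in the cell as glucose 6-phosphate, did not move as a group. Hk2, the inducible form, was at 73.3 CPM on day 1 and 41.97 CPM on day 3 (log2 ratio -0.80). Hk3, the myeloid form, was at 27.5 CPM [25.9 to 29.2] and 52.5 CPM [50.4 to 54.7], a log2 ratio of 0.93 that lay just short of 2-fold. Hk1, the housekeeping form, was at 24.9 and 28.2 CPM. Thus Hk2 exceeded Hk3 on day 1 and Hk3 exceeded Hk2 on day 3, with intervals that did not overlap on either day.

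At the phosphofructokinase step, which commits sugar to glycolysis, Pfkl, the liver-type subunit, was at 82.4 CPM [79.7 to 85.3] on day 1 and 34.4 CPM [32.7 to 36.2] on day 3 (2.39-fold lower). Pfkp, the platelet-type subunit, was at 88.9 and 62.1 CPM (log2 ratio -0.52). Both subunits were thus lower, and Pfkl more so. Pfkfb3, which makes the fructose 2,6-bisphosphate that activates the enzyme, went the other way, at 32.5 CPM [30.8 to 34.3] on day 1 and 57.1 CPM [54.9 to 59.4] on day 3 (log2 ratio 0.81, within 2-fold). Its relative Pfkfb4 was at 11.98 and 10.997 CPM, and Gpi1, which isomerises glucose 6-phosphate and forms part of the upper pathway, was at 375 and 293 CPM.

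The enzymes of lower glycolysis were among the most abundant transcripts of these cells, and all but the scarce Aldoc, a brain-type aldolase at 2.57 and 4.35 CPM, were lower on day 3. Gapdh, whose transcript ranked 36th by level on day 1 and 58th on day 3, was at 3081 CPM [3064 to 3098] and 2259 CPM [2245 to 2273]. Pkm, the pyruvate kinase gene, was at 1881 CPM [1868 to 1894] and 1066 CPM [1057 to 1076]. Eno1, the enolase gene, had the largest gap of the group, at 814 CPM [805 to 823] and 267 CPM [262 to 272], a log2 ratio of -1.61 (3.05-fold lower). Gapdh, Pkm and the remaining 4 were within 2-fold, those 4 with log2 ratios of -0.95 for Pgk1 (phosphoglycerate kinase), -0.73 for Aldoa (aldolase), -0.36 for Tpi1 (triosephosphate isomerase) and -0.17 for Pgam1 (phosphoglycerate mutase). The enzymes of 1 chain therefore differed between the days by very unequal amounts. Reads of Gapdh, Eno1, Ldha and other glycolytic genes may match processed pseudogenes, so their levels are less certain than those of single-copy genes.

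Hif1a, the gene of HIF-1α itself, was at 505 CPM [498 to 512] on day 1 and 168 CPM [164 to 172] on day 3, a log2 ratio of -1.59 (3.01-fold lower). It was the most abundant of the 14 oxygen sensing and hypoxia genes on both days. Egln3, which encodes PHD3 and is itself a target of HIF, was at 11.7 CPM [10.7 to 12.8] and 2.78 CPM [2.31 to 3.32] (4.19-fold lower). Egln1, the gene of PHD2, the main oxygen sensor, was at 61.1 and 33.8 CPM (log2 ratio -0.86). Among targets of the pathway, Ankrd37, an ankyrin repeat gene, was at 30.5 CPM [28.9 to 32.3] and 6.91 CPM [6.16 to 7.73] (4.41-fold lower). Ddit4, which encodes the mTORC1 inhibitor REDD1, was at 20.2 CPM [18.8 to 21.6] and 4.42 CPM [3.83 to 5.08] (4.56-fold lower). Mxi1, a MAX-binding antagonist of MYC, was at 241 CPM [236 to 245] and 106 CPM [103 to 109] (2.27-fold lower).

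The other targets gave smaller gaps or none. Bnip3, a mitophagy receptor, was at 49.2 and 29.2 CPM (log2 ratio -0.75). P4ha1, a collagen prolyl hydroxylase subunit, was at 95.7 and 58.9 CPM (log2 ratio -0.70). Kdm3a, a histone demethylase, and Higd1a, a mitochondrial inner membrane protein, had log2 ratios of -0.54 and -0.49. Ndrg1, a stress-response gene, was at 64.6 and 62.0 CPM, with an interval of the log2 ratio, -0.14 to 0.02, that held 0. Pdk1, which turns pyruvate away from the mitochondria by inhibiting pyruvate dehydrogenase, was at 12.4 CPM [11.3 to 13.5] and 15.4 CPM [14.3 to 16.6], a log2 ratio of 0.31 that lay above 0 but below the median of 0.44 of all genes. P4ha2, the other collagen hydroxylase subunit, was called higher on day 3 from 0.790 CPM (32 UMIs) and 2.51 CPM (112 UMIs), levels far below the 34.4 and 115 CPM of the fibroblast/FAP-like cells of the same libraries. Adm, the gene of the vasodilator adrenomedullin, was at 1.48 and 0.785 CPM and had too few UMIs for a ratio.

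The HIF complex recognises a core that reads ACGTG or GCGTG. RefSeq promoter windows on GRCm38.p6, the build of these data (mm10), were found for 32 of the 34 genes, as 46 windows, and the 250 bases before each start were searched on both strands. The letters ACGTG occurred in 47.8% of these 46 windows and in 16.6% of 32851 windows of all genes, and ACGTG or GCGTG in 80.4% and 38.6%. The members were listed as glycolysis genes and known targets of the hypoxia response, so a higher share may come from how the list was made. Of the 9 genes that were lower on day 3 in monocyte/macrophage-like cells, 7 held ACGTG in a window (all but Eno1 and Pfkl), beside 19 of the 32 matched members (59.4%) and 18.5% of all 27025 genes. These 9 genes are few and were picked by their ratios in these data, and the shares were not tested. The 150 bases before the start are shown for 4 of these 7, for Ldha and Bnip3, and for P4ha2, which was called higher, with each ACGTG or its reverse complement CACGT in capitals. Where both overlap, as in CACGTG, the same letters match on both strands. Windows lie at chr4:119108595-119108744 (plus strand) for Slc2a1, chr11:120948917-120949066 (plus) for Slc16a3, chr12:73907717-73907866 (plus) for Hif1a, chr8:45999851-46000000 (minus) for Ankrd37, chr7:46845654-46845803 (plus) for Ldha, chr7:138909507-138909656 (minus) for Bnip3 and chr11:54100774-54100923 (plus) for P4ha2.
Slc2a1: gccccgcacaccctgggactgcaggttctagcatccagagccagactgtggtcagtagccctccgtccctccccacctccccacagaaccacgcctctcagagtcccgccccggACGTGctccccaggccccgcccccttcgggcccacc
Slc16a3: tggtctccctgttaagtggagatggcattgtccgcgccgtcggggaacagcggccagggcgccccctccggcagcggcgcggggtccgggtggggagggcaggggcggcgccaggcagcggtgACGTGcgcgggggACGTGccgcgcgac
Hif1a: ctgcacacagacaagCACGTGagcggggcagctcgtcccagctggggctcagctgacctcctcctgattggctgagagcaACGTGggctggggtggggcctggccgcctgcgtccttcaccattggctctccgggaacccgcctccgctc
Ankrd37: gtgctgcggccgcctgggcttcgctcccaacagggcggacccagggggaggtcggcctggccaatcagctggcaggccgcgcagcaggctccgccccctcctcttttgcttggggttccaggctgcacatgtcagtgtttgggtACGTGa
Ldha: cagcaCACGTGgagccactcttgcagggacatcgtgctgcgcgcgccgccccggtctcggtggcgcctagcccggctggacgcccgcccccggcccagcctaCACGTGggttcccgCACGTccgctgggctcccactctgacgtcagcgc
Bnip3: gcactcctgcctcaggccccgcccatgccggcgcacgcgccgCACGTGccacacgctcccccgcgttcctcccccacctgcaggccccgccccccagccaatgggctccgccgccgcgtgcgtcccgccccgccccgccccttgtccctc
P4ha2: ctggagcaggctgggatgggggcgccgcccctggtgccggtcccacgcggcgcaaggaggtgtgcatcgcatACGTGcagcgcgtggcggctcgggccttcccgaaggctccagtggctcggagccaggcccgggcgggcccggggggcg
A match describes letters in a window and does not show binding. The Slc16a3 window held 2 matches within 27 bases of the start, and the printed Ldha window held CACGTG 48 bases before the start and again 145 bases before it, while the window of the other Ldha start (chr7:46846932-46847081, plus) held 0 matches. Bnip3, with CACGTG in its window, and P4ha2, with ACGTG, differed between the days in opposite directions in monocyte/macrophage-like cells. P4ha2 was scarce in these cells, however, and free RNA from other cells may make up more than 10% of its UMIs on both days.

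Within the monocyte/macrophage-like cells, 3 clusters made up most of day 1 and 3 others most of day 3. Those of day 1 were cluster 0 (led by Il1a, Serpinb2 and Cxcl3), cluster 1 (Ppbp, Cd163 and Pf4) and cluster 8 (Dmkn, Chil3 and Saa3), and those of day 3 were cluster 4 (Fcrls, Clec12a and Maf), cluster 5 (Gpnmb and Syngr1) and cluster 11 (the interferon-response genes Rsad2, Ifit3 and Ifit2). The glycolysis genes took 1.13%, 1.02% and 1.15% of UMIs in the day 1 clusters and 0.636%, 0.699% and 0.523% in the day 3 clusters. The clusters of a day came from 1 library and are not replicates. Slc2a1 was at 191, 141 and 199 CPM in the 3 day 1 clusters and at 31.8, 23.4 and 45.3 CPM in the 3 day 3 clusters. Hif1a was at 579, 448 and 515 CPM against 174, 140.0 and 181 CPM. Ankrd37 was uneven on day 1, at 54.7 CPM in the Dmkn cluster and 24.4 and 23.9 CPM in the Il1a and Ppbp clusters.

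Of the monocyte/macrophage-like clusters, only cluster 10, led by Plac8, Ifitm6 and Ly6c2 (Ly6c2 is a gene of inflammatory monocytes), held at least 50 cells on both days, 202 on day 1 and 387 on day 3. This depended on the clustering. With doublets removed, the cluster led by Ifitm6 and Plac8 held 510 and 37 cells. With a mitochondrial limit of 15%, clusters led by Saa3 (990 and 70 cells) and Slfn4 (80 and 328) also reached 50 on both days. In cluster 10 the difference between the days was small. The glycolysis genes took 0.739% and 0.660% of UMIs, and the hypoxia genes 0.0902% and 0.0903%. Of 25 members with enough UMIs, 1 was at least 2-fold lower (Slc2a1) and 2 at least 2-fold higher (Pfkfb3 and Bnip3), where 2.18% and 7.7% of the 5094 genes tested were lower and higher, and the members' median log2 ratio was 0.08 against 0.19 for all genes. Slc2a1 was at 140.0 and 66.4 CPM (log2 ratio -1.08, interval -1.34 to -0.82). Eno1 was at 531 and 300.4 CPM (log2 ratio -0.82), Slc16a3 at 435 and 281 CPM (log2 ratio -0.63), and Hif1a at 407 and 313 CPM (log2 ratio -0.38), all with intervals below 0. Gapdh and Pgk1 had log2 ratios of 0.09 and 0.01. Mxi1 was higher on day 3 in this cluster, at 139 and 209 CPM, and lower on day 3 over the whole class. On day 1 this cluster stood below the other 3 in Tpi1 (168 CPM against 457 to 472), Pgk1 (401 against 650 to 794) and Gapdh (1923 against 3132 to 3190). Most of the gaps seen over the whole class were thus smaller in this cluster.

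**Figure D2:**
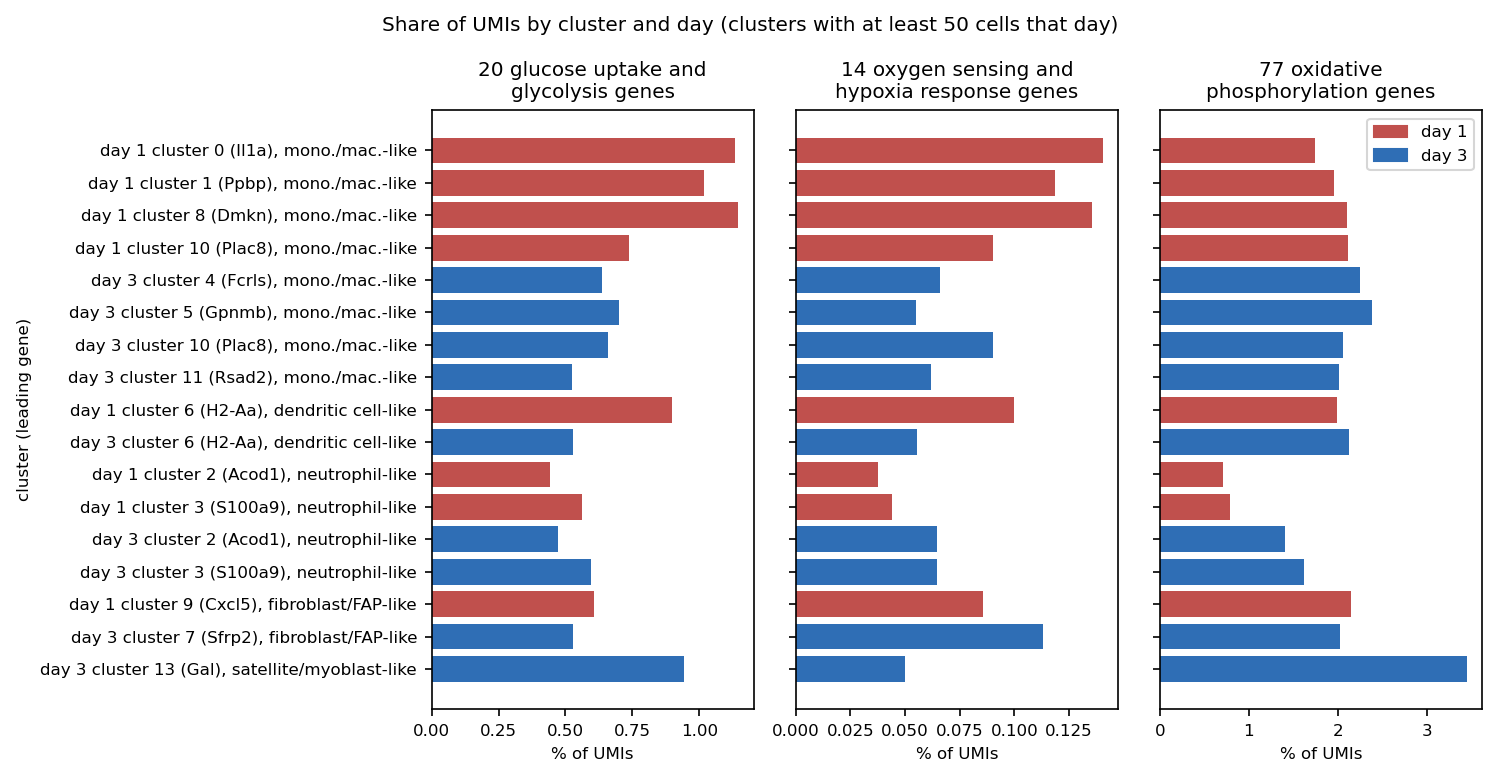
Share of UMIs (%) taken by the 20 glycolysis genes, the 14 oxygen sensing and hypoxia genes and 77 nuclear oxidative phosphorylation genes in each named cluster with at least 50 cells on a day, day 1 in red and day 3 in blue, 1 library per day. The Il1a, Ppbp and Dmkn clusters of day 1 have the longest glycolysis bars of the monocyte/macrophage-like clusters, the hypoxia bars of the Plac8 cluster are of equal length on both days, and the satellite cell/myoblast-like cluster has the longest oxidative phosphorylation bar.

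Dendritic cell-like cells formed 1 cluster on both days. When each cell was named by its own marker score, only 98 of its 458 cells of day 1 and 184 of its 450 cells of day 3 were still called dendritic cell-like, so its values describe the cluster led by H2-Aa and may be in large part those of other cells. Of 29 members tested, 10 were at least 2-fold lower on day 3 and 0 were higher, beside 3.82% and 12.8% of 7063 genes, and the median log2 ratio was -0.58 against 0.23 for all genes. Slc16a3 was at 324 CPM [309.9 to 339] on day 1 and 66.7 CPM [59.9 to 74.1] on day 3. Slc2a1 was at 128 CPM [119 to 137] and 36.4 CPM [31.4 to 41.9]. Eno1 was at 693 and 223 CPM, and Hif1a at 348 and 134 CPM. The 10 were Slc2a1, Slc16a3, Pfkl, Eno1, Ankrd37, Mxi1, Ddit4 and Hif1a, which were also called in the monocyte/macrophage-like cells, and Pgk1 and Pkm, which were within 2-fold there. The macrophage list in these cells summed to 4016 CPM on day 1 and 5351 CPM on day 3 and the neutrophil list to 1523 and 268 CPM, and their part in the ratios was not tested.

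In fibroblast/FAP-like cells the log2 ratios of the members lay on both sides of 0. The intervals of 9 of the 14 hypoxia genes lay above 0 and of 4 below. Those of the 19 glycolysis genes tested lay above 0 for 8 and below for 7. Of all 11209 genes tested, 5869 lay above 0 and 3285 below. The median log2 ratio of the members was 0.10, below the 0.27 of all genes, and it was -0.11 with at least 1000 UMIs for a ratio. These cells came almost entirely from cluster 9 (led by Cxcl5, Prg4 and Il1rl1) on day 1 and from cluster 7 (Sfrp2, Col3a1 and Col1a2) on day 3. Of 33 members tested, 8 were at least 2-fold higher and 2 at least 2-fold lower, where 21.2% and 7.14% of 11209 genes were higher and lower. That share of members on each side is near that of all genes. The glycolysis genes took 0.607% of UMIs on day 1 and 0.531% on day 3, and the hypoxia genes 0.0856% and 0.113%.

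Among the oxygen sensing and hypoxia genes, 6 of 14 were at least 2-fold higher on day 3 (Bnip3, Egln3, P4ha1, P4ha2, Pdk1 and Hif1a) and 1 was lower (Adm), beside the 21.2% and 7.14% of all genes. In the same cells the pericyte/smooth muscle list summed to 20.5 CPM on day 1 and 259 CPM on day 3 (Acta2 the most abundant at 201 CPM), and the macrophage list to 399.8 and 1302 CPM, and their part in these ratios was not tested. Pdk1 was at 3.30 CPM [2.53 to 4.23] on day 1 and 19.3 CPM [17.6 to 21.1] on day 3 (5.81-fold higher). Bnip3 was at 10.97 CPM [9.52 to 12.6] and 51.8 CPM [48.97 to 54.7] (4.71-fold higher). Hif1a was at 169 CPM [163 to 175] and 343 CPM [336 to 351] (2.03-fold higher), the opposite of its direction in monocyte/macrophage-like cells. The collagen hydroxylase genes P4ha1, at 76.9 and 166 CPM, and P4ha2, at 34.4 and 115 CPM, were higher on day 3, when the fibroblast list, which holds Col1a1, Col1a2 and Col3a1, summed to 23622 CPM against 7242 CPM on day 1. Adm was at 158 CPM [153 to 164] on day 1 and 49.7 CPM [46.9 to 52.6] on day 3 (3.18-fold lower), and it was nearly confined to these cells among the named classes, with 8.44 CPM or less elsewhere. Kdm3a, at 8.42 and 16.8 CPM, lay just inside the 2-fold limit.

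On the glycolytic side, Slc2a1 was the 1 gene at least 2-fold lower, at 49.3 and 23.4 CPM. Pfkfb3 was at 6.498 and 22.6 CPM (3.47-fold higher) and Hk3 at 2.40 and 6.64 CPM (2.75-fold higher). Ldha, at 1075 CPM [1060 to 1090] on day 1 and 594 CPM [584 to 604] on day 3, had a log2 ratio of -0.86. Gapdh was at 1641 and 1668 CPM, a log2 ratio of 0.02. From the neutrophil markers S100a8, S100a9, Hdc and Il1r2, a share of free RNA of 6.60% of UMIs on day 1 and 4.41% on day 3 was estimated in these cells, taking every UMI of these markers as free RNA. At that share, free RNA would make up more than 10% of the UMIs of 22 members on day 1 and of 2 members on day 3 (Hk3 and Aldoc). Among the 22 were Hif1a and Bnip3, which were called higher on day 3, and Slc2a1, which was called lower. With the estimated free RNA subtracted, the median log2 ratio of the members was 0.38 in place of 0.10.

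Compared with monocyte/macrophage-like cells of the same library, fibroblast/FAP-like cells of day 1 had 17 members at least 2-fold lower and 3 (Adm, P4ha2 and Ddit4) at least 2-fold higher of 34, beside 17.3% and 34.9% of 10573 genes. On day 3 only 5 were lower (Hk3, Pfkfb3, Pfkfb4, Aldoc and Mxi1) and 6 were higher (Hk2, Adm, P4ha1, P4ha2, Ddit4 and Hif1a), beside 14% and 23% of 11855 genes. Hk2 was 132.8 CPM in fibroblast/FAP-like cells on day 1 and 133.2 CPM on day 3, and it was the highest there among the named classes on both days.

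In neutrophil-like cells of day 1, 2 transporter genes were high and the lower glycolytic enzymes were low. Of 32 members tested against monocyte/macrophage-like cells of day 1, 4 were at least 2-fold higher (Slc2a3, Slc16a3, Hk3 and Pfkfb4) and 19 at least 2-fold lower, where 13.5% and 44.3% of 9047 genes were higher and lower. Slc16a3 was at 1328 CPM [1297 to 1360] in neutrophil-like cells, above every glycolytic enzyme in them, and at 401 CPM in monocyte/macrophage-like cells. Slc2a3 was at 105 CPM [96.3 to 114] against 3.46 CPM. On the other side, Gapdh was at 677 CPM [655 to 700] against 3081 CPM, Pgk1 at 91.0 against 711 CPM and Tpi1 at 60.0 against 446 CPM. The members' median log2 ratio was -1.54, against -0.77 for all genes and -1.71 for the 77 oxidative phosphorylation genes, so that genes outside glycolysis were lower in neutrophil-like cells too. The members' median was -0.73 with each library clustered on its own and -0.99 with each cell named by its marker score. The same median on day 3 was -0.04, against -0.35 for all genes. Of 33 members tested on day 3, 8 were at least 2-fold higher in neutrophil-like cells and 2 lower, beside 13.2% and 30.1% of 10107 genes. The intervals of 7 members lay above 0, those of 11 below, and those of 15 held 0, beside 1555, 2616 and 5936 of all genes. Neutrophil-like cells of day 3 held 474048 UMIs and monocyte/macrophage-like cells 44557772. The limit of 100 UMIs, set on both classes together, was thus passed mainly through the latter. A call on day 3 can therefore rest on few UMIs of neutrophil-like cells. Slc2a1 differed little between the classes on day 1, at 150.2 CPM [139.8 to 161] and 170.2 CPM, a log2 ratio of -0.18.

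On day 3 the neutrophil-like cells were few (244 cells, 474048 UMIs). Of 27 members tested between the days, 5 were at least 2-fold higher on day 3 (Tpi1, Pgk1, Ndrg1, P4ha1 and Higd1a) and 2 lower (Hk3 and Ddit4), beside 18.6% and 5.72% of 3968 genes. Slc16a3 was at 806 CPM [727 to 891], Slc2a1 at 101 CPM [74.7 to 134] and Slc2a3 at 67.5 CPM [46.2 to 95.3], each above its level in every other named class of that day. In the same cells the neutrophil list was at 44799 CPM in place of 89860 CPM and the macrophage list at 1240 CPM in place of 356 CPM, the fibroblast list at 932 CPM (led by Col3a1) in place of 126 CPM (mostly Pi16) and the median mitochondrial share at 1.38% in place of 0.245%, and their part in the ratios was not tested. Taking every UMI of 5 collagen and matrix genes (Col1a1, Col1a2, Col3a1, Dcn and Lum) as free RNA, its share was 2.04% on day 1 and 13.5% on day 3. Free RNA would then make up more than 10% of the UMIs of 5 members on day 1 (Tpi1, Pgk1, Adm, P4ha2 and Higd1a). On day 3 it would do so for 23 members, so the levels of day 3 in these cells are the least certain. Among the 23 were Tpi1, Pgk1, P4ha1 and Higd1a, which were called higher on day 3, and Ddit4, which was called lower. Ndrg1 and Hk3 were not among them.

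**Figure D3:**
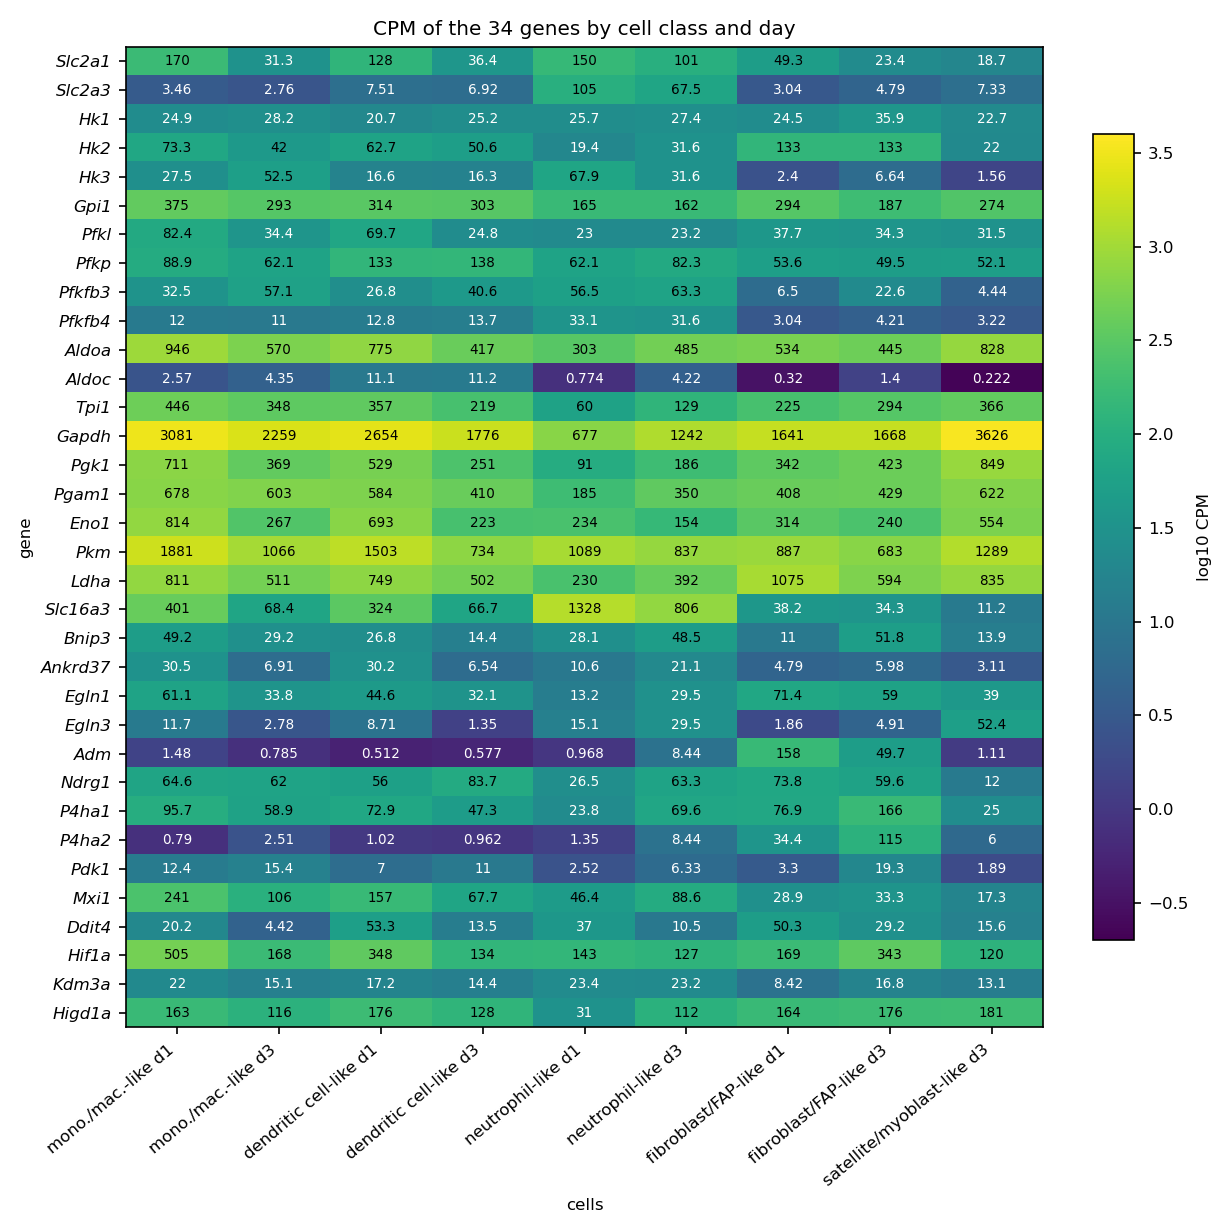
Level of each of the 34 genes in CPM (numbers, with colour for log10 CPM) in the named classes with at least 50 cells on that day (d1, day 1 and d3, day 3), 1 library per day. Slc16a3 and Slc2a3 are highest in neutrophil-like cells, Adm and P4ha2 in fibroblast/FAP-like cells, and Gapdh in satellite cell/myoblast-like cells.

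The satellite cell/myoblast-like cells of day 3 (200 cells, median 44240.5 UMIs) had the highest levels of most lower glycolytic enzymes. Gapdh was at 3626 CPM [3586 to 3665], Pgk1 at 849 CPM [830.5 to 869] and Ldha at 835 CPM [816 to 854], each above every other named class of that day. Set against fibroblast/FAP-like cells of the same library, 4 of 33 members were at least 2-fold higher (Gapdh, Pgk1, Eno1 and Egln3) and 11 lower, beside 15.7% and 28% of 11095 genes. Egln3 stood out at 52.4 CPM [47.8 to 57.4] against 4.91 CPM. Many other hypoxia genes were low, Adm at 1.11 CPM, Pdk1 at 1.89 CPM, P4ha2 at 5.998 CPM and P4ha1 at 25.0 CPM. Myofiber markers summed to 204 CPM in these cells and to 17.1 CPM in fibroblast/FAP-like cells, and what myofiber RNA gave to the enzyme levels was not tested.

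By class, 16 of the 34 members were highest in monocyte/macrophage-like cells on day 1 (among them Slc2a1, Hif1a and every lower glycolytic enzyme but Aldoc and Ldha), where 12.7% of 10867 genes were highest. A further 8 were highest in neutrophil-like cells, 6 in fibroblast/FAP-like and 4 in dendritic cell-like cells, where 21.1%, 55.2% and 10.97% of all genes were. On day 3, 3 were highest in monocyte/macrophage-like cells (Hk3, Pfkl and Mxi1), where 12.8% of 12315 genes were. Fibroblast/FAP-like and satellite cell/myoblast-like cells had 10 each, where 26.0% and 33.98% of all genes were. Neutrophil-like cells had 7 and dendritic cell-like cells 4, where 17.3% and 9.96% of all genes were. The days are not directly comparable in this, since satellite cell/myoblast-like cells were too few on day 1 and entered the order on day 3 only, where they took Aldoa, Tpi1, Gapdh, Pgk1, Pgam1, Eno1 and Pkm. Some of these orders rest on small gaps, such as Pfkl on day 3 at 34.4 CPM [32.7 to 36.2] in monocyte/macrophage-like and 34.3 CPM [32.0 to 36.7] in fibroblast/FAP-like cells.

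**Figure D4:**
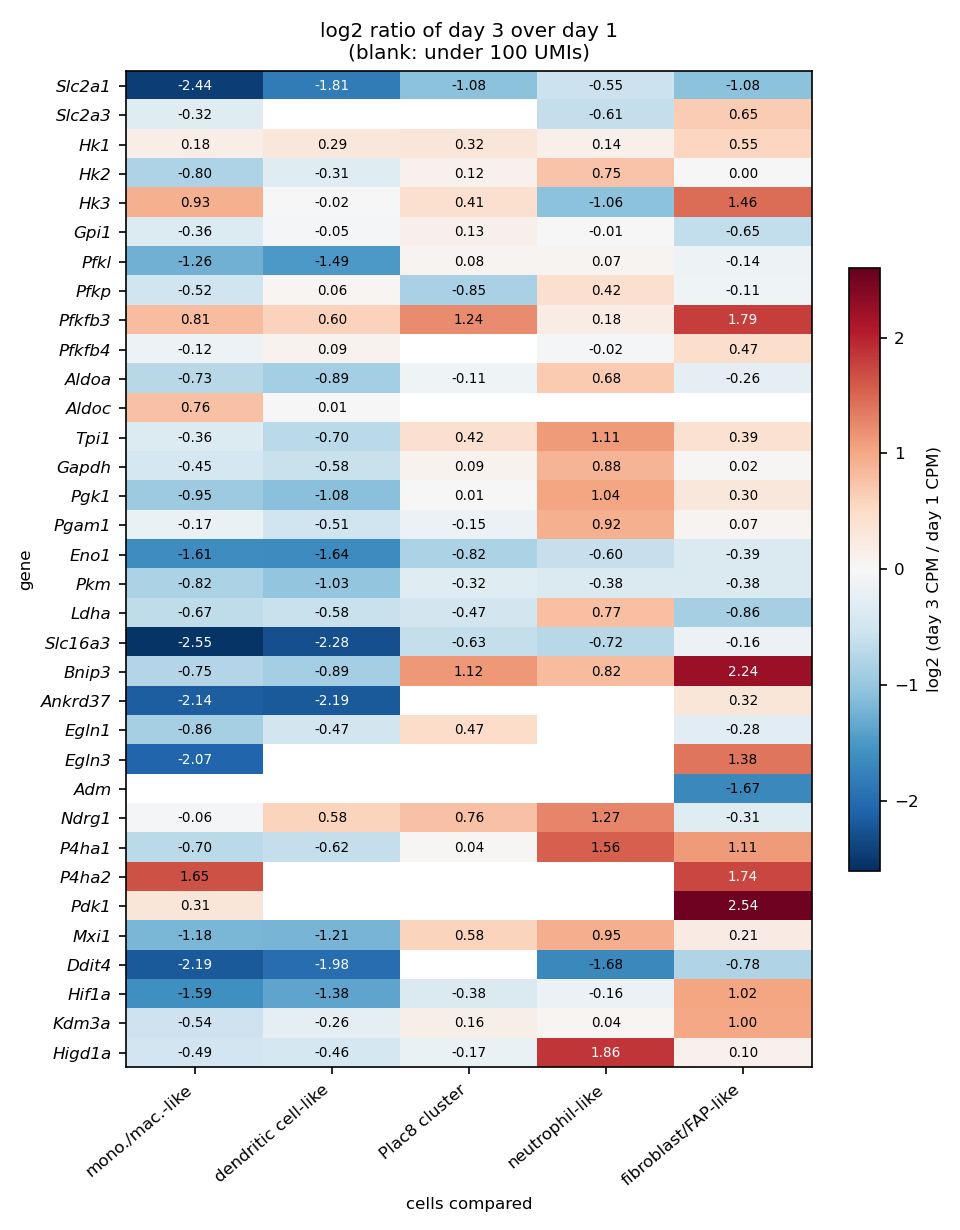
The log2 ratio of day 3 CPM over day 1 CPM for each of the 34 genes in, from left to right, monocyte/macrophage-like cells, dendritic cell-like cells, the Plac8 cluster, neutrophil-like cells and fibroblast/FAP-like cells, 1 library per day (blank where the 2 days held under 100 UMIs). The first 2 columns are mostly blue (lower on day 3), the Plac8 column is mostly pale, and Hif1a and Bnip3 are blue in the first column and red in the last (fibroblast/FAP-like).

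The other genes of both pathways were compared in the same way. Of 36 other glycolysis and glucose-use genes, 25 could be tested in monocyte/macrophage-like cells, and 7 were at least 2-fold higher on day 3 and 0 lower, with a median log2 ratio of 0.28, beside 26.8% higher, 4.97% lower and a median of 0.44 for all genes. The genes with the largest ratios were scarce. Pfkm, the muscle phosphofructokinase, was at 0.420 and 1.86 CPM (log2 ratio 2.12), Ldhb, the lactate dehydrogenase of oxidative tissue, at 4.77 and 19.7 CPM (2.05), and Bpgm, bisphosphoglycerate mutase, at 1.33 and 5.005 CPM (1.90). Pdp1, a phosphatase that activates pyruvate dehydrogenase, was at 2.89 and 8.82 CPM (1.61), Tigar, a fructose bisphosphatase that opposes Pfkfb3, at 1.80 and 4.76 CPM (1.39) and the monocarboxylate transporter Slc16a7 at 6.74 and 14.9 CPM (1.15). Ldhb was thus higher on day 3 where Ldha was lower, though Ldha was still the more abundant by far.

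Of 33 other hypoxia response genes, 27 could be tested, and 3 were at least 2-fold lower and 7 at least 2-fold higher on day 3, with a median log2 ratio of -0.06, beside the same 4.97%, 26.8% and 0.44 for all genes. Vegfa, the angiogenic growth factor, was at 149.7 CPM on day 1 and 23.9 CPM on day 3 (log2 ratio -2.65, interval -2.74 to -2.55). Hilpda, a lipid droplet protein and HIF target, was at 646 and 117 CPM (log2 ratio -2.47). Both were abundant and were the lowest of their list, with Ero1l, an oxidase of the endoplasmic reticulum at 101 and 41.0 CPM, as the third. Of the 7 genes at least 2-fold higher, Plod1, a collagen lysyl hydroxylase, was the most abundant, at 44.0 and 88.0 CPM (log2 ratio 1.00), followed by Tfrc, the transferrin receptor, at 17.2 and 38.5 CPM (log2 ratio 1.16). Zfp395 was at 3.95 and 12.5 CPM, and Angptl4, an inhibitor of lipoprotein lipase, at 3.90 and 9.63 CPM. The rest were scarce in these cells, Lox at 0.840 and 6.06 CPM, Loxl2 at 0.593 and 2.38 CPM and Car9 (carbonic anhydrase IX) at 0.790 and 5.18 CPM. Lox and Loxl2, which crosslink collagen, were at 471 and 34.2 CPM on day 1 and at 1057 and 151 CPM on day 3 in fibroblast/FAP-like cells. Taking every UMI of the same 5 collagen and matrix genes as free RNA, its share in monocyte/macrophage-like cells was 2.05% on day 1 and 1.76% on day 3. Lox was at 88.2 and 295 CPM in the free RNA of the 2 libraries, so free RNA at that share would give all of its UMIs in these cells on day 1 and most on day 3, and its ratio is not read as a change in these cells. Among the members, free RNA at that share would make up more than 10% of the UMIs of Adm and P4ha2 on both days.

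Nuclear genes of oxidative phosphorylation, which burns pyruvate with oxygen, served as a comparison. Their 77 transcripts took 1.92% of UMIs in monocyte/macrophage-like cells on day 1 and 2.29% on day 3, with a median log2 ratio of 0.34, 1 gene at least 2-fold higher and 0 lower, beside a median of 0.44, 26.8% higher and 4.97% lower for all genes. The members' median in the same cells was -0.67. In fibroblast/FAP-like cells the same list had a median of -0.13 against 0.10 for the members, a value that was -0.11 with at least 1000 UMIs for a ratio and 0.37 with doublets removed. In the Plac8 cluster the medians were -0.03 and 0.08, and in dendritic cell-like cells 0.14 and -0.58. In neutrophil-like cells, 67 genes of the list could be tested and had a median of 1.11 against 0.18 for the members, with 40 (59.7%) at least 2-fold higher beside 18.6% of all genes, in the cells whose levels of day 3 were the least certain.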

How the data were processed

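Single-cell RNA-seq libraries of injured quadriceps, 1 from day 1 and 1 from day 3, were analysed. The authors deposited raw counts of UMIs per gene and barcode, made with Cell Ranger (version 5.0.0 and build mm10 per the submitters' notes, while the file headers name another version). Total counts were 74852240 on day 1 and 102565783 on day 3. The barcodes with most UMIs (7367 and 6640) were kept if they held at least 1000 UMIs, at least 200 genes and at most 7.5% mitochondrial UMIs.

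Cells of both libraries were clustered together with Seurat 5.3.0 and sctransform 0.4.2 (R 4.3.3, 3000 variable features of which the 2872 outside the marker, member and pathway lists were used, 10 principal components, resolution 0.8). A cluster was named where at least 3 markers of 1 list were raised, its score reached 0.4 and led the next list by at least 0.1. Scrublet (scanpy 1.11.5) marked 1 and 0 cells at its automatic threshold and so had not worked. Doublets were therefore kept, and the 363 and 171 highest scores were removed as an alternative.

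UMIs were summed per class and day and divided by the class total. A log2 ratio used 0.5 added to each count and an exact binomial interval (scipy 1.17.1), and the procedure was tested on simulated data. No p-value was computed, since each day had 1 library. All 34 members are named. Of other pathway genes, the 6 of each list with the largest log2 ratio and at least 100 UMIs in monocyte/macrophage-like cells are named, and any other gene named was chosen after its values were seen. The members and lists were chosen with earlier results of these data known. Alternatives were the cell and mitochondrial limits, doublets, clustering, naming, means of cells, free RNA, denominator, filter and thinning. Aldoa has 2 feature rows, and the one holding nearly all UMIs was used.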

Additional observations from a re-analysis of the deposited data

Results flagged for a closer look

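In 2 genes the difference between the days passed 2-fold in opposite directions in the 2 largest classes of non-neutrophil cells. Hif1a had a log2 ratio of day 3 over day 1 of -1.59 in monocyte/macrophage-like and of 1.02 in fibroblast/FAP-like cells, a gap of 2.61. Egln3 had -2.07 and 1.38, a gap of 3.45, at low levels in fibroblast/FAP-like cells (35 and 119 UMIs). In fibroblast/FAP-like cells the call of Hif1a did not hold when centred on the median of all genes, 0.27. After that centring, 4 hypoxia genes were at least 2-fold higher and 2 lower there, in place of 6 and 1, beside 15.4% and 11.8% of all genes. With 1 library per day, the difference between the classes was not tested.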

How the results depend on the processing

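No paired analysis was possible because each day had 1 library. Under 12 alternatives, 393 member ratios between the days in monocyte/macrophage-like cells were recomputed, 0 of those whose reported interval lay off 0 changed sign, and 61 lay outside the interval of the reported value. Of the 3 members whose interval held 0, each changed sign under some alternative, Slc2a3 up to 0.21, Pfkfb4 up to 0.10 and Ndrg1 up to 0.13. The count of members at least 2-fold lower stayed between 9 and 10, and that of members at least 2-fold higher was 2 for the mean of the CPM of each cell, 0 with cells thinned to 3000 UMIs and 1 otherwise. After thinning, 30 members had enough UMIs for a ratio, and P4ha2 was not among them. Where P4ha2 was tested, its log2 ratio lay between 1.31 and 1.98. The members' median of -0.67 was -0.69 with a mitochondrial limit of 15%, -0.62 with a cell limit of 10% of the 99th UMI percentile, -0.62 with each cell named by its highest marker score, -0.74 for the mean over cells and -0.73 after thinning. In fibroblast/FAP-like cells, the median of 0.10 was 0.37 with doublets removed, 0.25 for the mean over cells and 0.38 with free RNA subtracted. For neutrophil-like over monocyte/macrophage-like cells, the median of -1.54 was -0.73 with each library clustered on its own and -0.99 with naming by cell, and thinning left out 1785 of 2081 neutrophil-like cells of day 1.

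Other alternatives were chosen after seeing the data. Centred on the median of all genes, 17 members were lower in monocyte/macrophage-like cells, the medians were -1.11 there, -0.16 in fibroblast/FAP-like cells and -0.77 for neutrophil-like over monocyte/macrophage-like cells, and Hk1 (-0.26) and Pdk1 (-0.13) changed sign. With at least 1000 UMIs for a ratio, 0 members were higher and 8 were lower in monocyte/macrophage-like cells, beside 15.2% and 5.31% of 6514 genes. The medians of the members were then -0.72 and, in fibroblast/FAP-like cells, -0.11. In the Plac8 cluster in place of the whole class, 2 members were higher and 1 lower, the median was 0.081, and these changed sign: Ndrg1 (0.76), Hk2 (0.12), Gpi1 (0.13), Pfkl (0.081), Tpi1 (0.42), Gapdh (0.086), Pgk1 (0.0091), Bnip3 (1.12), Egln1 (0.47), P4ha1 (0.039), Mxi1 (0.58) and Kdm3a (0.16). The cause was not tested, but by construction that cluster leaves out the clusters that lie on 1 day. It also joins cells of both days that were placed together as alike.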

Other observations

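In fibroblast/FAP-like cells, the other genes of both pathways were called about as often as all genes. Of 28 other hypoxia response genes tested, 8 were at least 2-fold higher and 0 lower, with a median log2 ratio of 0.31, and of 25 other glycolysis genes, 7 were higher and 2 lower, with a median of 0.01, beside 21.2% higher, 7.14% lower and a median of 0.27 for all genes. Among genes named here after their values were seen, the collagen lysyl hydroxylase genes Plod1 and Plod2 were at 41.9 and 60.0 CPM on day 1 and at 115 and 169 CPM on day 3. The mitophagy receptor gene Bnip3l was at 53.95 and 137 CPM, beside its relative Bnip3 at 10.97 and 51.8 CPM. Pdk3, another inhibitor kinase of pyruvate dehydrogenase, was at 9.59 and 34.1 CPM, beside Pdk1 at 3.30 and 19.3 CPM. Slc16a1, which encodes the lactate transporter MCT1, went the other way, at 64.7 CPM on day 1 and 20.4 CPM on day 3. Of the 28 other hypoxia response genes, the intervals of 17 lay above 0 and of 10 below. Vegfa (98.9 and 52.5 CPM), Hilpda (97.1 and 57.3 CPM) and Angptl4 (352 and 238 CPM) were lower on day 3 in these cells, within 2-fold.

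The neutrophil-like cells fell into 2 clusters with unequal shares of glycolytic transcripts on both days. The glycolysis genes took 0.442% of UMIs on day 1 and 0.470% on day 3 in the cluster led by Acod1 and G0s2, and 0.561% and 0.595% in the cluster led by S100a9 and Retnlg. Oxidative phosphorylation genes took 0.708% and 0.792% on day 1 in these clusters and 1.40% and 1.62% on day 3.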
